A study of Mus musculus with 6 samples.

Results

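Forkhead factors were examined in regulatory T cells (Tregs) with and without Zfp335. The 10 genes Foxp3, Foxp1, Foxp4, Foxo1, Foxo3, Foxn2, Foxn3, Foxj2, Foxj3 and Foxk1 were taken by symbol from a table of 13709 gene rows, and each symbol had 1 row. The choice of these 10 was made with earlier results of these data known. Bulk RNA-Seq had been done on 3 WT and 3 KO samples of sorted CD4+YFP+CD25+ Tregs from C57BL/6 mice. KO mice were Foxp3Cre Zfp335fl/fl, and WT mice were their Foxp3Cre littermates with intact Zfp335. Both genotypes therefore carried the YFP and iCre knock-in behind the coding sequence of Foxp3, which marks Tregs and, in KO mice, deletes Zfp335 in them. According to the methods, the mice were 2 weeks old. The labels named both lymph nodes and spleen as the tissue, and did not say whether a sample was 1 mouse or a pool. The p-values thus measure the spread between these samples. Because the sort used a reporter of the Foxp3 locus and CD25, the product of Il2ra, the level of Foxp3 was read only within cells that the reporter had admitted.

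Forkhead factors share a winged-helix domain that binds DNA, typically at sites built around the letters TGTTTA. Foxp3 is the lineage factor of Tregs, and Foxp1 and Foxp4 are its closest relatives in T cells and can pair with each other and with Foxp3 through a leucine zipper. Foxo1 and Foxo3 are held in the cytoplasm when Akt phosphorylates them and, when nuclear, induce genes of quiescence, homing and cell death and take part in switching on Foxp3. Foxn2, Foxn3, Foxj2, Foxj3 and Foxk1 are broadly expressed, and less is known of them in Tregs.

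Libraries held 32032631 to 40728419 counts. Expression values are CPM, read counts scaled by library size after library sizes were adjusted by the TMM method of edgeR. Calling a gene required a change of more than 1.5-fold between KO and WT together with p under 0.05 and an adjusted p under 0.1 in the edgeR fit over all genes. Zfp335 was at 101, 94.3 and 103 CPM in WT and at 37.0, 37.9 and 40.2 CPM in KO, in the direction of the labels. The T cell genes Cd3e, Cd3d, Cd3g, Cd4 and Il2ra were at 185 CPM or more in every library, and of these Cd3d was called lower in KO. The 7 monocyte and neutrophil markers summed to 16.7 to 28.0 CPM in WT and 51.0 to 60.4 CPM in KO, with 6 of 7 called higher and S100a8 and S100a9 at 0 counts in every WT library. In single cells of sorted Tregs from younger mice, the study reported S100a8 and S100a9 as high in a Treg subset that accumulated in KO. These genes are thus not read here as markers of other cells alone. Sums for B cells were 21.0 to 24.5 CPM in WT and 19.8 to 21.6 CPM in KO. Those for NK cells were 2.91 to 5.08 and 6.62 to 8.94 CPM, for dendritic cells 1.98 to 3.94 and 8.81 to 11.5 CPM, for Cd8a and Cd8b1 9.32 to 13.2 and 12.02 to 12.7 CPM, and for 4 globin genes 22.9 to 98.9 and 42.3 to 47.8 CPM. Of the dendritic cell genes, Itgax alone was called, higher in KO (mean 0.436 CPM in WT and 7.03 CPM in KO). Flt3, Siglech and Zbtb46 were not called. Among the B cell genes, Cd22 was called higher and Cd79b lower. The proliferation genes Mki67 and Top2a summed to 280 to 674 CPM in WT, lowest in replicate 3, and to 2117 to 2221 CPM in KO. WT replicate 3 stood apart from the other WT libraries, with a biological coefficient of variation of 0.265 over all 3 WT libraries, 0.124 without it and 0.0703 in KO. Results that rest on it are given with and without it. Of the 5 genes listed to mark sex, 4 were in the table, all Y-linked, and had counts in every library, summing to 169 to 378 CPM in WT, highest in replicate 3, and 129 to 146 CPM in KO. Of these, 3 were called lower in KO, namely Eif2s3y, Kdm5d and Uty. Foxp3 and Foxo4 are X-linked. In bulk libraries, fewer cells of a type and less RNA per cell cannot be told apart. What part other cells, cell division, sex or the inflammation that the study reported in KO mice had in the results below was not tested.

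The sequences upstream of the members' starts were read from RefSeq (GRCm38.p6), which held a window for 8 of the 10 members and none for Foxn2 and Foxk1. Starts were those of RefSeq. By the GENCODE annotation, several windows, that of Foxj2 among them, lay past the first start of the gene. Each of the 8 genes but Foxj3 had a window that held exon bases of the gene itself. In the 250 bases before each start, the 7 letters TGTTTAC or their complement GTAAACA stood in none of these 8 genes, against 3.54% of 27025 genes. The search was then widened, after that result was seen, to the 6-letter core TGTTTA or TAAACA. The core stood before Foxp3 and Foxp1 and not before Foxp4, Foxo1, Foxo3, Foxn3, Foxj2 or Foxj3, against 13.5% of genes. A gene with several windows has more letters searched, and Foxp1 had 3 windows and Foxp3 had 2. Of all the members' windows, that of Foxp3 with the core was also the poorest in G and C, at 37.6%, against a median of 52.4% over all windows and 80.4% for Foxj2. Shown first are the Foxp3 and Foxp1 windows with a core, since both genes were lower in KO, cut to the bases ahead of any annotated exon of a protein-coding transcript. Further core matches of Foxp1 lay within such exons and are not shown. Next come 2 linked genes that moved in opposite directions and hold the 7-letter form, namely Bcl2l11, a Foxo target, and Akt1, a kinase that restrains Foxo factors. This pair was picked after its values were seen, and Txnip, Mapkap1, Nfatc2, Hdac7 and Swap70 of the linked lists hold the 7-letter form too. Capitals mark the core and, where present, the seventh letter. All run 5′ to 3′ on the strand of the gene. They are a match of letters, not a measured site.
Foxp3, chrX:7579426-7579566 (+): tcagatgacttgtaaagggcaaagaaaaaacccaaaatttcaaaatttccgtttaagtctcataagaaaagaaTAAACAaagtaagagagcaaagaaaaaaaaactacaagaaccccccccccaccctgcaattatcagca
Foxp1, chr6:99266533-99266765 (-): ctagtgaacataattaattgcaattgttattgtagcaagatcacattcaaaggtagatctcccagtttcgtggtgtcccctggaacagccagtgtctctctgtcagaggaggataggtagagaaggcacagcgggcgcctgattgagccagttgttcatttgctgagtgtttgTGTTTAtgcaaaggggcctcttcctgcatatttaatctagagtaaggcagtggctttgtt
Foxp1, chr6:99028314-99028548 (-): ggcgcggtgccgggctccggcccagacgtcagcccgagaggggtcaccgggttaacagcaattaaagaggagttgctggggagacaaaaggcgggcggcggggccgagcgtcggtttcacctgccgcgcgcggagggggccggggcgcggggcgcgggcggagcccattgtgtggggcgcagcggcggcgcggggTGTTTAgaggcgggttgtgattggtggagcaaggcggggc
Bcl2l11, chr2:128125788-128126037 (+): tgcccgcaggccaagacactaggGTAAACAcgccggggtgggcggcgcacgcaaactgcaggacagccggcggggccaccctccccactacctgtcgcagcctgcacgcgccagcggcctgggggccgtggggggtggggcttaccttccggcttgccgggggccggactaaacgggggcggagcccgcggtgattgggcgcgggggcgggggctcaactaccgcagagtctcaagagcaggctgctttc
Akt1, chr12:112674885-112675134 (-): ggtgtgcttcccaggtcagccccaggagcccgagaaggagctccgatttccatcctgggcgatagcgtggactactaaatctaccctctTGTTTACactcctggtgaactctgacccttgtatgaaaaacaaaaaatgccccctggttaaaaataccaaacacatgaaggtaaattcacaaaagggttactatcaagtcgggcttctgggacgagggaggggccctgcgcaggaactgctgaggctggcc

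Foxp3 transcripts were lower in KO Tregs. Foxp3 lies at chrX:7573644-7595245 (GRCm38, the assembly also named mm10). It was at 738, 642 and 1189.8 CPM in WT replicates 1 to 3, and at 459.7, 472 and 463 CPM in KO replicates 1 to 3. Every KO value was below every WT value, the KO values lay close together, and WT replicate 3 was far above the other WT values. WT averaged 857 ± 292 CPM and KO 465 ± 6.48 CPM (SD, n = 3), and 54.3% of the WT mean was left. On the log2 scale the fold change of KO against WT (log2FC) was -0.88 (SE 0.21), and the edgeR adjusted p was 0.0122.

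The size of the Foxp3 difference depended on WT replicate 3. Without this library the log2FC was -0.57 (SE 0.06, edgeR adjusted p 1.27e-06), or 1.49-fold, so that the test was passed and the cutoff on fold change was missed. KO then retained 67.4% of the mean of WT replicates 1 and 2. The coefficient of variation of Foxp3 was 34.1% in WT and 1.39% in KO, and 78.4% of genes in WT and 5.17% of genes in KO varied less than it. Il2ra, whose product was the other gate of the sort, was likewise highest in WT replicate 3, at 903, 909 and 1302.0 CPM in WT. In KO it was at 954, 964 and 957 CPM, inside the WT range, with a log2FC of -0.12 (SE 0.14, edgeR adjusted p 0.558).

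Exons of Foxp3 overlap those of Ccdc22 and Ppp1r3f on the opposite strand and of the noncoding Flicr on the same strand. Of the 50-base words in its coding transcripts, 23.3% also occur in transcripts of other genes. Use of the strand in counting was not given in the sources used here, so reads over these exons are uncertain. Ccdc22 was at 27.1 to 31.5 CPM in WT and 22.1 to 26.2 CPM in KO, and was not called. Ppp1r3f was at 40.3, 33.2 and 39.5 CPM in WT and 21.5, 19.6 and 19.6 CPM in KO, with a log2FC of -0.89 (SE 0.10, edgeR adjusted p 0.000598). Both were far below Foxp3 in CPM, and neither had the high value of Foxp3 in WT replicate 3. Flicr was not among the genes counted, so its level could not be read, and the part of shared reads was not tested. No 50-base word of a member occurred in another forkhead gene of the table.

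Both relatives of Foxp3 were lower in KO as well, with little spread in either genotype. Foxp1 (chr6:98925338-99522721), which helps to keep T cells quiescent and partners Foxp3 on DNA, was at 258, 253 and 261 CPM in WT and 144, 156 and 145 CPM in KO. The groups lay far apart, and the highest KO value was well under the lowest WT value. Its log2FC was -0.80 (SE 0.06, edgeR adjusted p 0.000123), with 57.5% of the WT mean left in KO. Foxp4 (chr17:47867133-47924645), which can pair with Foxp1, was at 195, 179 and 169 CPM in WT and 103, 118 and 120 CPM in KO, again without overlap. With a log2FC of -0.67 it was called (SE 0.09, edgeR adjusted p 0.000881). WT replicate 3 was the lowest WT library for Foxp4, was level with the others for Foxp1, and was the highest for Foxp3. Accordingly, the ratio of Foxp3 to Foxp1 counts was 2.86, 2.54 and 4.56 in WT and 3.20, 3.03 and 3.20 in KO, and the genotypes overlapped in it. Foxp2, a relative best known from brain and lung, was at 0.304 to 0.380 CPM in WT and 0.0547 to 0.539 CPM in KO and was not called.

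Foxo1 and Foxo3 were both called lower in KO. Foxo1 (chr3:52268336-52353221), which drives homing and survival genes in naive T cells and Tregs, was at 299, 309 and 329 CPM in WT and 186, 194 and 203 CPM in KO. No KO library reached the WT range. Its log2FC was -0.68 (SE 0.07, edgeR adjusted p 0.000349). Foxo3 (chr10:42181841-42276755), which acts partly in place of Foxo1, was at 84.9, 98.9 and 106 CPM in WT and 59.7, 61.0 and 57.7 CPM in KO. With no overlap between groups, its log2FC was -0.70 (SE 0.09, edgeR adjusted p 0.000969). The ratio of Foxo1 to Foxo3 counts was 3.09 to 3.52 in WT and 3.11 to 3.53 in KO, so that the balance of this pair did not separate the genotypes. Foxo4, the third Foxo gene of the table and not one of the 10 members, was at 58.7, 54.0 and 57.4 CPM in WT and 26.8, 29.1 and 28.7 CPM in KO. Its log2FC of -1.01 (SE 0.08, edgeR adjusted p 9.87e-05) was the lowest of the forkhead genes tested. All 3 Foxo genes measured were thus called lower, as were 12.5% of all genes. Tested against a fold change of 1.5 rather than against 0, Foxo1 and Foxo3 were not called (edgeR glmTreat adjusted p 0.197 and 0.237). Foxo4 still was (edgeR glmTreat adjusted p 0.00223).

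Of the Foxn members, Foxn3 was called lower in KO and Foxn2 was not called. Foxn3 (chr12:99190078-99563582), a repressor linked to the cell-cycle checkpoint, was at 263, 255 and 356 CPM in WT and 184, 176 and 165 CPM in KO. WT replicate 3 was again the highest, and every KO value was below every WT value. The log2FC was -0.74 (SE 0.13, edgeR adjusted p 0.00358), and it was -0.57 (SE 0.06, edgeR adjusted p 1.25e-06) without WT replicate 3, under the fold cutoff. Foxn2 (chr17:88440711-88490533) was at 56.7, 67.2 and 76.4 CPM in WT and 66.4, 78.6 and 77.0 CPM in KO. These ranges overlapped, and the log2FC of 0.15 (SE 0.12, edgeR adjusted p 0.370) was not called.

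None of the Foxj and Foxk members was called. Foxj2 (chr6:122819914-122845366), a broadly expressed activator, was at 66.3, 57.9 and 70.5 CPM in WT and 49.0, 52.8 and 53.2 CPM in KO. The groups did not overlap, and the log2FC of -0.33 (SE 0.09) had an edgeR adjusted p of 0.0238, but it was below the fold cutoff. Foxj3 (chr4:119537004-119629119), a relative of Foxj2, was at 72.6, 81.6 and 83.4 CPM in WT and 83.9, 77.6 and 75.6 CPM in KO, with overlapping ranges and a log2FC of -0.003 (SE 0.08, edgeR adjusted p 0.984). Foxk1 (chr5:142401497-142462011), which acts in metabolism and competes with Foxo factors for their sites, was at 247, 226 and 201.7 CPM in WT and 256, 247 and 254 CPM in KO. It was the single member with every KO value above every WT value, although KO replicate 2 and WT replicate 1 were less than 1 CPM apart. The difference was not called, with a log2FC of 0.17 (SE 0.08, edgeR adjusted p 0.159). Foxk2, its relative outside the 10, was at 65.1, 59.9 and 63.5 CPM in WT and 81.5, 90.0 and 87.0 CPM in KO, without overlap. Foxk2 had a log2FC of 0.46 (SE 0.07, edgeR adjusted p 0.00211) and was below the fold cutoff.

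**Figure D1:**
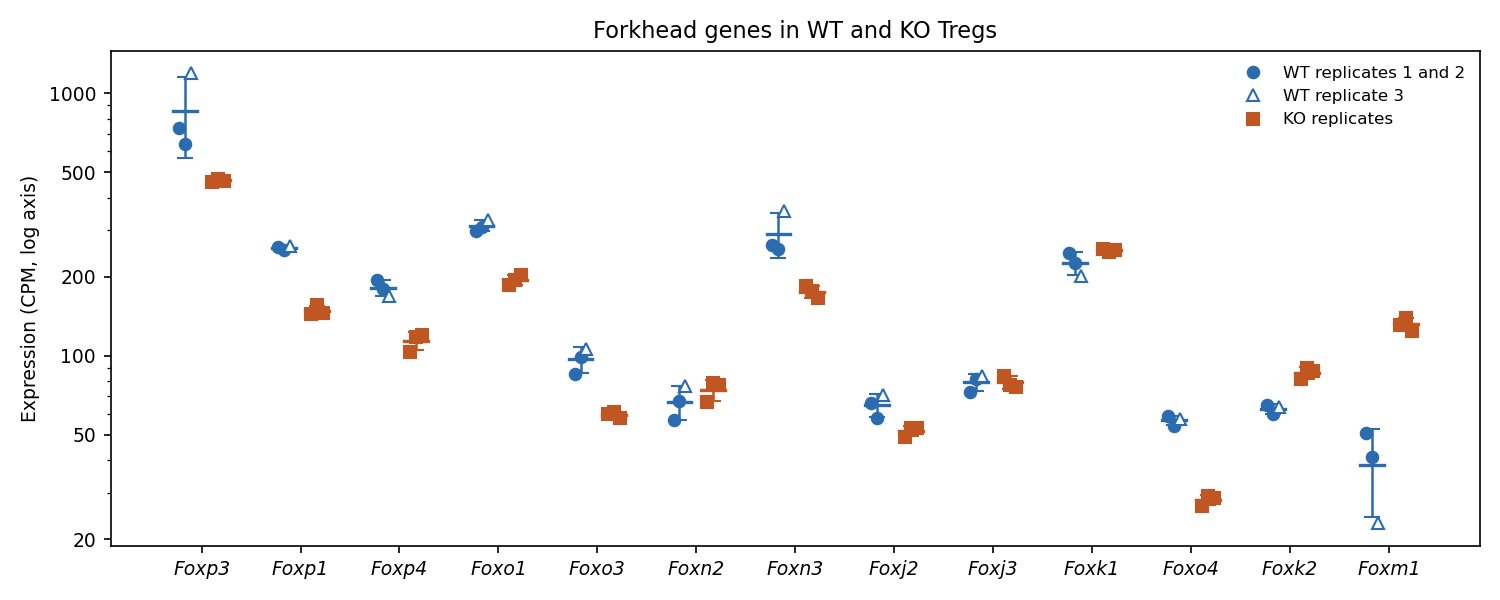
Expression of the 10 members and of Foxo4, Foxk2 and Foxm1 in CPM on a log axis. Points are libraries, with WT replicate 3 as open triangles, and bars are mean ± SD (n = 3); KO squares lie below all WT points for 7 of the 10 members, and WT replicate 3 stands above the other WT points for Foxp3 and Foxn3.

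In the fit over all 13594 genes tested, 6 of the 10 members were called, namely Foxp3, Foxp1, Foxp4, Foxo1, Foxo3 and Foxn3, and all 6 were lower in KO. RNA of Foxp3, Foxo1 and Foxo3 had been shown by the study to be lower in these same samples, so the count is not independent evidence. Over all genes 24.4% were called, with 12.5% called lower and 11.9% called higher. All 10 members passed the filter on low counts. Every KO value was below every WT value for 7 members, against 27.6% of genes, and above for 1 member, against 26.2% of genes. The median log2FC of the members was -0.68, and that of all genes was -0.04. The 6 called members lay within a narrow band, from -0.88 to -0.67, which is the part of the distribution that 9.28% to 14.3% of all genes fall below. Without WT replicate 3, Foxp1, Foxp4, Foxo1 and Foxo3 were still called, 4 of the 10, against 13.2% of genes called lower in that fit. Tested against a fold change of 1.5 rather than against 0, Foxp1 alone was called (edgeR glmTreat adjusted p 0.0163).

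**Figure D2:**
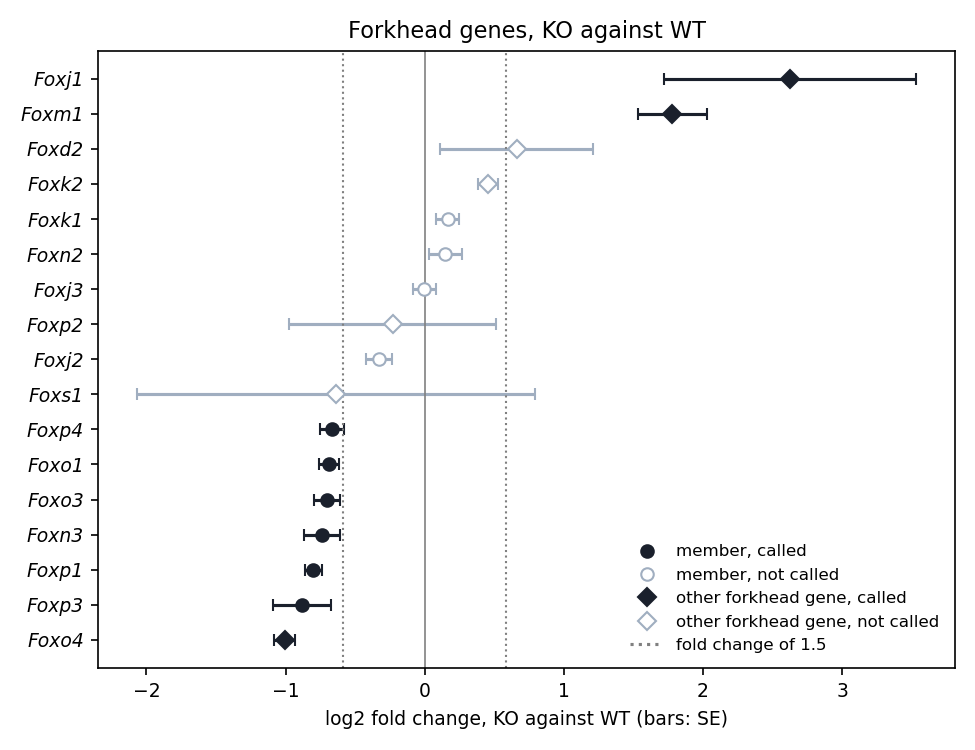
Log2 fold change of KO against WT for the 17 forkhead genes of the table, with bars of 1 SE and dotted lines at a fold change of 1.5. The called members group between -0.88 and -0.67, Foxo4 lies at -1.01, and Foxm1 and Foxj1 lie on the opposite side at 1.78 and 2.62.

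**Figure D3:**
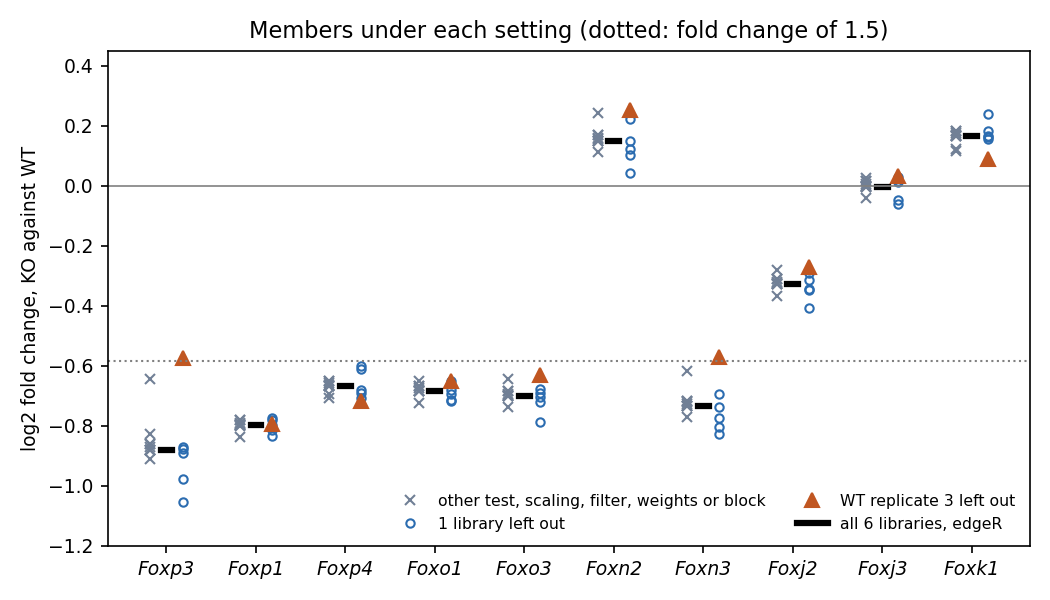
Log2 fold change of KO against WT for each member under each setting, with the value over all 6 libraries as a black bar, other tests, scalings, filters, weights and the replicate block as crosses, and fits without 1 library as circles. Without WT replicate 3 (triangles) Foxp3 and Foxn3 rise to -0.57, above the dotted line at a fold change of 1.5.

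Outside the 10 members, the table held 7 of 34 other mouse forkhead genes, and 3 of them were called, 2 higher and 1 lower. Over all genes 24.4% were called, 11.9% higher and 12.5% lower. With DESeq2, 2 of the 7 were called, 1 higher and 1 lower. Foxm1, which drives genes of cell division, was at 50.8, 41.1 and 23.0 CPM in WT and 131, 140 and 124 CPM in KO. All KO libraries were far above WT, and WT replicate 3, the highest for Foxp3, was the lowest for Foxm1. The log2FC of Foxm1 was 1.78 (SE 0.25, edgeR adjusted p 0.00126), and it moved beside Mki67, at 199 to 445 CPM in WT and 1507 to 1568 CPM in KO. Foxj1, known for motile cilia and for restraint of T cell activation, had 16, 0 and 39 counts in WT and 140, 132 and 100 counts in KO. The log2FC of Foxj1 was 2.62 (SE 0.91, edgeR adjusted p 0.0528), and DESeq2 did not call it (adjusted p 0.112). Foxj1 also lost its call without WT replicate 1 or without KO replicate 1, 2 or 3, at edgeR adjusted p of 0.129, 0.150, 0.127 and 0.112. Foxd2, at 0.324 to 1.01 CPM, and Foxs1 were not called. Foxs1 had 49 counts in WT replicate 3, none in the other WT libraries and 9 to 14 in KO, so that leaving out WT replicate 3 gave a call upward (edgeR adjusted p 0.00498) against WT libraries at 0, whose fitted fold is not a bound.

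Levels were compared between members per kilobase of transcript, with the median length of each gene's coding transcripts in GENCODE M21. On this scale Foxp3 was the highest in WT, at 385 ± 131 CPM per kilobase (SD, n = 3), followed by Foxn3 at 175 ± 33.8 and Foxp1 at 127 ± 1.93. Foxj3, Foxp4 and Foxk1 came next, at 56.9 ± 4.14, 56.6 ± 3.99 and 55.3 ± 5.53 CPM per kilobase, and did not differ beyond their spread. Foxo3 and Foxo1, at 38.2 ± 4.30 and 36.0 ± 1.77, did not differ beyond theirs either. Foxn2 at 23.7 ± 3.50 and Foxj2 at 14.04 ± 1.39 CPM per kilobase were the lowest. In KO, Foxp3, Foxn3 and Foxp1 still led, at 209 ± 2.91, 105 ± 5.72 and 73.2 ± 3.31 CPM per kilobase. Foxk1, at 62.1 ± 1.05, and Foxj3, at 56.8 ± 3.10, then stood above Foxp4, at 35.6 ± 2.86. Foxn2, at 26.3 ± 2.36, and Foxo3, at 23.4 ± 0.655, came next and overlapped, as did Foxo3 and Foxo1, at 22.4 ± 1.04, while every Foxn2 value was above every Foxo1 value. Foxj2 was again the lowest, at 11.2 ± 0.501 CPM per kilobase. With the longest transcript as the length, Foxp3 remained first in both genotypes, while Foxp4 came second in WT, at 45.2 CPM per kilobase, and Foxp1 fell to 35.9, beside Foxo1 at 36.0. The order below Foxp3 thus depended on the length used, and isoforms were not resolved here.

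Summed over the 17 forkhead genes with the median lengths, forkhead transcripts came to 962, 908 and 1216 CPM per kilobase in WT and to 729, 748 and 723 in KO. Foxp3 made up 34.5%, 31.8% and 44.0% of this sum in WT and 28.3%, 28.4% and 28.8% in KO. Without Foxp3 the sum was 631, 620 and 681 CPM per kilobase in WT and 523, 536 and 514 in KO. Thus both the Foxp3 share and the remaining sum were lower in every KO library than in every WT library.

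The 6 lists of genes linked to Foxo factors or to Foxp3 were then read from the same fit. Of 21 genes that Foxo factors can induce, 3 were called, all lower, and the median log2FC of the 21 was -0.37. The share called lower was 14.3%, near the 12.5% of all genes, and the share called in either direction was below that of all genes (24.4%). Sesn1, a stress-response inhibitor of mTOR signaling, was at 116, 110 and 143 CPM in WT and 44.3, 40.3 and 39.9 CPM in KO (log2FC -1.57, SE 0.11, edgeR adjusted p 6.77e-05). Bcl2l11, which encodes the death factor Bim and whose upstream sequence is shown above, fell from 150 ± 14.4 to 82.4 ± 4.32 CPM (log2FC -0.87, SE 0.09). Bcl6, a repressor used by follicular T cells, fell from 37.2 ± 13.1 to 13.1 ± 1.02 CPM (log2FC -1.51, SE 0.26). Klf2, which induces the egress receptor gene S1pr1 and was chosen for mention after its values were seen, was not called, with a log2FC of -0.37 (SE 0.11, edgeR adjusted p 0.0302).

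At Il7r, the receptor for IL-7, the direction turned with WT replicate 3. Il7r was at 118, 123 and 563 CPM in WT and 194, 210 and 201 CPM in KO, so that KO lay between WT replicate 3 and the other WT libraries. Its log2FC was -0.41 (SE 0.56, edgeR adjusted p 0.602) over all libraries and 0.74 (SE 0.06, edgeR adjusted p 9.69e-08) without WT replicate 3. In that fit 6 of the 21 targets were called, with Il7r and Irs2 higher and Bcl2l11, Bcl6, Sesn1 and Sesn3 lower. Without WT replicate 1, 5 targets were called. WT replicate 3 was above both other WT libraries at 15 of the 21 targets (71.4%), at 8 of the 10 members (80.0%) and at 39.2% of all genes tested.

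Of 26 genes of the PI3K, Akt and 14-3-3 pathway that controls where Foxo proteins reside, 5 were called higher and 1 lower, with a median log2FC of 0.21. Together these were 23.1% of the list, near the 24.4% of all genes, but the directions differed. The share called higher was 19.2%, beside 11.9% of all genes, and the share called lower was 3.85%, beside 12.5%. Akt1, whose upstream sequence is shown above, rose from 184 ± 14.9 to 305 ± 3.13 CPM (log2FC 0.73, SE 0.08, edgeR adjusted p 0.000376). Phlpp2, a phosphatase that opposes Akt, rose with a log2FC of 0.92 (SE 0.09), and Ywhah, a 14-3-3 protein of the kind that retains Foxo factors outside the nucleus, rose with one of 0.63 (SE 0.07). The called genes thus included both a kinase of the pathway and a brake on it. Protein levels, phosphorylation and location were not measured.

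Of 25 genes that act on the Foxp3 promoter, its enhancers or its methylation, 6 were called higher and 2 lower, and the median log2FC was -0.02. Over all genes 11.9% were called higher and 12.5% lower, against 8.0% of this list called lower. Runx3, which binds Foxp3 enhancers with Cbfb, was at 40.99, 40.4 and 54.8 CPM in WT and 164, 174 and 174 CPM in KO (log2FC 1.91, SE 0.12, edgeR adjusted p 4.36e-05). Gata3, also the Th2 factor, rose with a log2FC of 0.78 (SE 0.08), and Smad3, a transducer of TGF-β, with one of 0.70 (SE 0.08). Nr4a3, a nuclear receptor induced by TCR signals, fell from 77.8 ± 6.45 to 51.2 ± 3.15 CPM (log2FC -0.60, SE 0.09), and it was below the fold cutoff without WT replicate 1 or without KO replicate 3, at -0.53 and -0.57. Tet1, which demethylates DNA, fell from 23.5 ± 4.94 to 12.8 ± 0.131 CPM (log2FC -0.87, SE 0.16).

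Of 23 genes whose proteins bind or modify Foxp3, 2 were called higher and 4 lower, with a median log2FC of 0.01. Together these were 26.1% of the list, near the 24.4% of all genes. By direction, 8.70% were called higher, beside 11.9% of all genes, and 17.4% lower, beside 12.5%. Ikzf2, which encodes Helios, was at 709, 757 and 647 CPM in WT and 324, 338 and 317 CPM in KO (log2FC -1.11, SE 0.08, edgeR adjusted p 6.07e-05). Ikzf4, which encodes the corepressor Eos, fell from 243 ± 40.1 to 98.2 ± 2.92 CPM, and the deacetylase gene Hdac7 fell from 520.2 ± 68.2 to 230.0 ± 7.62 CPM. Hif1a, the hypoxia factor whose protein binds Foxp3, was at 191, 228 and 282 CPM in WT and 574, 618 and 590.5 CPM in KO (log2FC 1.35, SE 0.14, edgeR adjusted p 0.000312). Ezh2, the methyltransferase of Polycomb, rose from 89.7 ± 12.2 to 154 ± 3.30 CPM.

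Of 24 genes known to be higher with Foxp3, 9 were called lower and 1 higher, with a median log2FC of -0.29. The share called lower was 37.5%, beside 12.5% of all genes, and the share called higher was 4.17%, beside 11.9%. Several of them had been shown by the study to be lower in these same samples, so the count is not independent evidence of a direction. Nt5e, which encodes the ectoenzyme CD73, fell most by p, from 358 ± 23.3 to 68.6 ± 4.54 CPM (log2FC -2.38, SE 0.08, edgeR adjusted p 4.29e-06). Nrp1, a surface receptor of thymic Tregs, fell from 167 ± 11.8 to 75.5 ± 5.87 CPM. Entpd1, which encodes CD39 and works in series with CD73, rose from 31.5 ± 3.86 to 63.3 ± 1.499 CPM (log2FC 1.01, SE 0.10, edgeR adjusted p 0.000295). Without WT replicate 3, 8 genes of this list were called lower and 2 higher, with Gpr83 no longer called and Il10 called higher.

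Of 15 genes known to be lower with Foxp3, 14 were tested and Il17a was removed by the filter on low counts. Of the 14, 7 were called higher (beside 11.9% of all genes) and 2 lower (14.3%, beside 12.5%), with a median log2FC of 1.499. The study had shown some of these, Ifng and Il4 among them, to be higher in the same samples, and Il2, Il4 and Il21 had 0 to 44 counts in WT and 28 to 351 in KO, so neither the count nor the median is independent evidence of a direction. Ifng, the Th1 cytokine, was at 3.78, 4.54 and 2.64 CPM in WT and 82.8, 84.7 and 84.4 CPM in KO (log2FC 4.52, SE 0.18, edgeR adjusted p 7.11e-06). Pde3b, a phosphodiesterase that Foxp3 directly silences, was at 6.60, 7.98 and 9.37 CPM in WT and 72.5, 78.3 and 78.7 CPM in KO (log2FC 3.26, SE 0.13, edgeR adjusted p 7.92e-06). Id2, an inhibitor of E proteins, rose from 37.8 ± 14.6 to 215 ± 7.71 CPM. Tcf7, which encodes TCF-1, and the phosphatase gene Dusp4 moved the other way, with log2FC of -0.69 (SE 0.07) and -0.68 (SE 0.07). Satb1 is counted both here and among the regulators of the Foxp3 locus, Ikzf2 and Ikzf4 are counted both as partners and as induced genes, Sirt1 is counted both as a partner and as a Foxo regulator, and Il7r is counted both here and among the Foxo targets.

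**Figure D4:**
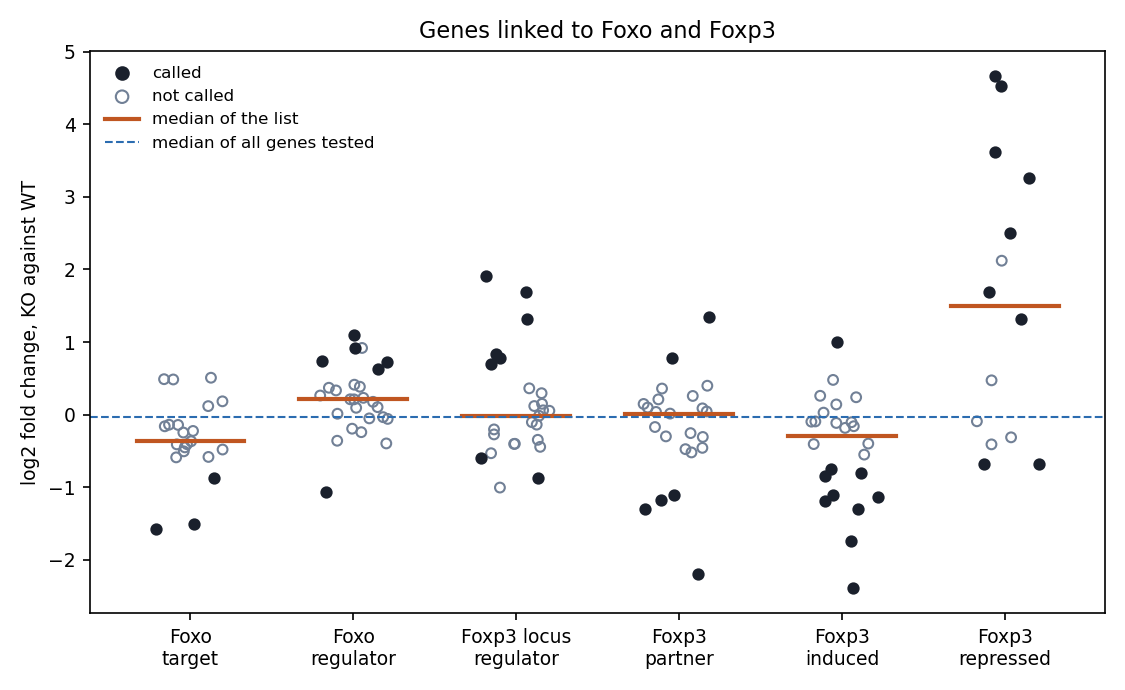
Log2 fold change of KO against WT for each tested gene of the 6 lists linked to Foxo and Foxp3, with filled points for called genes, a bar at the median of each list and a dashed line at the median of all genes tested, -0.04. The median lies at -0.37 for Foxo targets and at 1.499 for genes that Foxp3 holds down, and each list except the Foxo targets has called genes on both sides.

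The genes whose pattern over the 6 libraries was most like that of Foxp3, by Pearson's r of log2 CPM among genes whose mean reached 10 CPM, were Stat5b (r = 0.997), Ubr2 (0.997), Arhgef18 (0.996), Sun2 (0.996) and Max (0.996). With 6 libraries in 2 genotypes and 1 library apart, these r describe a likeness of pattern and carry no test. The order of the KO libraries was not the same in all of them. Each of the 5 had its highest value in WT replicate 3 and KO values below all WT values. Stat5b, a transducer of IL-2 signals, was at 356, 337 and 397 CPM in WT and 315, 316 and 316 CPM in KO, and its log2FC of -0.20 (SE 0.08, edgeR adjusted p 0.0685) was below the fold cutoff. Arhgef18 was called over all libraries (log2FC -0.64, SE 0.17, edgeR adjusted p 0.0177) and, at -0.41, not without WT replicate 3. Ctla4, a receptor through which Tregs restrain antigen-presenting cells, was chosen after its values were seen. Ctla4 was at 507, 509 and 920.5 CPM in WT and 505, 479 and 477 CPM in KO, close to WT replicates 1 and 2, and it was not called (log2FC -0.41, SE 0.22, edgeR adjusted p 0.185).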

How the data were processed

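The 3 WT and 3 KO libraries came from bulk RNA-Seq of sorted Tregs. The authors had cleaned the reads with SOAPnuke, mapped them to mm10 by HISAT2 with a single alignment kept for each read, and used StringTie for quantification. The authors deposited whole-number counts per gene, without normalization and without columns of their own comparisons. The annotation, the use of strand and the step that gave whole numbers were not given in the sources used here. No gene had fewer than 60 counts over the 6 samples, so the table lacks genes of low counts. A single alignment for each read can misplace reads of near-identical genes.

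Counts were tested with edgeR 4.0.16 in R 4.3.3 by the quasi-likelihood F-test (filterByExpr at a minimum count of 10, TMM scaling, KO against WT over 6 samples, no covariate, two-sided, Benjamini-Hochberg over all 13594 genes tested). The SE is the log2 fold change divided by the square root of F. The cutoffs on fold change, p and adjusted p are those of the study, which used DESeq2 (here 1.42.0, an alternative). Other alternatives were RLE scaling, library totals alone, other filters, other cutoffs, glmTreat, voom with sample quality weights (limma 3.58.1), the replicate number as a block, and leaving out each library. The procedure was tested on simulated counts. These had the same spread in both genotypes and no library apart, unlike the data, so they do not speak to the effect of WT replicate 3. Total counts per sample ranged from 32032631 to 40728419, and 3 counts, taken as the lowest level that can be told from 0, equal 0.0747 to 0.0913 CPM, for counting error only. No 2 libraries agreed within sampling noise. The members and lists were chosen with earlier results of these data known. Lists came from general knowledge. Named were Zfp335, the 10 members, the other forkhead genes of the table, from each list up to 3 called genes higher and 3 lower by smallest p at a mean of at least 5 CPM, and the 5 genes most like Foxp3. Of the genes this rule names, 1 is not reported here. Genes chosen otherwise are marked as such or stand beside a result as overlapping genes, gates, markers or sources of a count. Positions came from GENCODE M21 (GRCm38).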

Additional observations from a re-analysis of the deposited data

How the results depend on the processing

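Of 150 fold changes of the 10 members under the alternatives, 134 kept their direction and their side of the cutoffs. The alternative of an adjusted p under 0.05 alone reused the main fit, and glmTreat gave the same log2 fold changes as it. Under these, only the calls could change. Of the 6 called members, Foxp1 kept its call under every alternative, with log2 fold changes of -0.84 to -0.78. Foxp3 missed the cutoffs under glmTreat (log2 fold change -0.88, adjusted p 0.203) and without WT replicate 3, and leaving out single libraries gave -1.06 to -0.57. Its adjusted p lay between 1.27e-06 and 0.203 over all alternatives.

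No pairing of the samples by replicate number was seen. The deviations of same-numbered WT and KO samples from their group means had correlations of 0.0377, 0.0404 and -0.0116. With 3 libraries a group and WT replicate 3 apart, these correlations cannot exclude a pairing. With the replicate number as a block, the same count of 6 members was called, all lower, Foxp3 had a log2 fold change of -0.83, and 3190 genes were called against 3318 without it.

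Counts of calls moved with the cutoffs. When only an adjusted p under 0.05 was required, 5244 genes, 9 Foxo targets, 13 Foxo regulators, 14 Foxp3 locus regulators and 14 Foxp3 partners were called. Under glmTreat against a fold change of 1.5, the calls were 1686 genes, 1 member, 3 Foxo regulators and 4 Foxp3 locus regulators. With voom weights, 5 Foxo targets were called. Leaving out single libraries gave 2867 to 3667 calls over all genes, 4 to 6 members, 2 to 4 other forkhead genes and 3 to 6 Foxo targets.

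Directions turned only among values that were not called over all libraries. Foxj3, at -0.003, went to 0.016 with DESeq2, 0.015 with RLE scaling, 0.006 with at least 10 counts in every sample and 0.025 with voom weights, and lay between -0.061 and 0.032 without single libraries. Foxp2 lay between -1.01 and 0.26 without single libraries. Foxs1 went to 3.83 with voom weights and 1.28 with the replicate block, and lay between -1.23 and 6.52 without single libraries, the latter without WT replicate 3, which alone of the WT libraries had counts of it. Il7r went to 0.53 with voom weights, 0.03 with the replicate block, and between -0.77 and 0.74 without single libraries, the latter without WT replicate 3. The cause of the other changes was not tested. With 3 libraries a group and WT replicate 3 apart, sizes near the fold cutoff are less certain than directions.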
